A study of Homo sapiens with 6 samples.

Results

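The YAP and TEAD target genes examined here were CCN1 (named CYR61 in the deposited tables), CCN2 (named CTGF there), ANKRD1, F3, CRIM1, AMOTL1, AMOTL2 and NUAK2. Their members were the accessible regions that carry these 8 names, at any distance from the gene start. These made up 341 of the 226920 regions in the series, 163 of them named for CRIM1. The genes were chosen by name with the regions called in all 3 comparisons already known, so their changes are given as a description and the deposited adjusted p as a property of each region. A region's name says which gene start it was assigned to, not that it regulates that gene.

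The assay was ATAC-seq, which uses the Tn5 transposase to cut open DNA and attach sequencing adapters, and the cells were A375, a human melanoma line. Cells were given recombinant HMGA1 for 2 h or for 18 h, or were left untreated (mock), giving 3 groups of 2 libraries. The protein HMGA1 shapes chromatin and binds the minor groove of AT-rich DNA. The labels give no dose of the protein and do not say whether mock cells received its buffer, nor how long mock cells were kept. Biological replicates are named in the labels without a word on separate cultures, so the p-values measure only a spread between libraries that may be technical.

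YAP and its relative TAZ are co-activators that carry the output of the Hippo pathway. When the LATS kinases are active they phosphorylate YAP and TAZ, which are then held in the cytoplasm; without that phosphorylation both enter the nucleus and bind the TEAD factors, which recognise DNA and often act at enhancers far from gene starts. CCN1 and CCN2 encode secreted matricellular proteins, and together with ANKRD1, an ankyrin repeat protein gene, they are the usual readouts of YAP activity. F3 encodes tissue factor, the cell-surface starter of blood coagulation, and CRIM1 a transmembrane protein that binds BMP ligands. AMOTL1 and AMOTL2 encode angiomotin-like proteins that bind YAP and retain it at junctions, and NUAK2 encodes an AMPK-related kinase. In melanoma, YAP and TEAD activity is known mainly from invasive, undifferentiated cells.

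The gene starts were read for the TEAD core motif GGAATG. The promoter windows of RefSeq (GRCh38.p14, the primary assembly of hg38) run from 250 bases before to 50 bases after a start and covered 6 of the 8 genes in 7 windows; CCN1 and CRIM1 had no entry. On either strand, GGAATG occurred in windows of 4 genes (ANKRD1, CCN2, NUAK2 and AMOTL2), and in 14.0% of the 35116 windows of the whole table. The windows with the motif are shown because they place these 4 genes' TEAD letters inside the regions whose values follow; capitals mark GGAATG or its complement CATTCC, the longer form ACATTCC or its complement, and the AP-1 motif TGANTCA.
ANKRD1, chr10:90921038-90921337, minus strand: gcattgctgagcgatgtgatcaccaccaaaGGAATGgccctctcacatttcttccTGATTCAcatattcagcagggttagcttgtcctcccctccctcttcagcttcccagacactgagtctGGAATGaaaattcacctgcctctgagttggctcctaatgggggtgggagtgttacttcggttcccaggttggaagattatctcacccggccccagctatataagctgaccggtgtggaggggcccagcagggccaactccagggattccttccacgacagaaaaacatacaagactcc
CCN2, chr6:131951323-131951622, minus strand: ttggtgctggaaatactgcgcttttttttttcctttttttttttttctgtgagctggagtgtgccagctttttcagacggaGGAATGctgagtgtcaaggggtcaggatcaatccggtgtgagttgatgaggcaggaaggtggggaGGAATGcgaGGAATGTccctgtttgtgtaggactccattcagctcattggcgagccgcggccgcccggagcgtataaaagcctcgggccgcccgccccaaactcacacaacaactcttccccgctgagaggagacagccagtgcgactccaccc
NUAK2, chr1:205321696-205321995, minus strand: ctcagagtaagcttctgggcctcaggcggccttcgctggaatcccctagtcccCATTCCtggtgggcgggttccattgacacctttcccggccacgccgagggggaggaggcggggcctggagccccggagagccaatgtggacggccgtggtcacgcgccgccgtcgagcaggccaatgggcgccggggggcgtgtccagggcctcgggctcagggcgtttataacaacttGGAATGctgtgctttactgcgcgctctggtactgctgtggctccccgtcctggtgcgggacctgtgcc
AMOTL2, chr3:134374398-134374697, minus strand: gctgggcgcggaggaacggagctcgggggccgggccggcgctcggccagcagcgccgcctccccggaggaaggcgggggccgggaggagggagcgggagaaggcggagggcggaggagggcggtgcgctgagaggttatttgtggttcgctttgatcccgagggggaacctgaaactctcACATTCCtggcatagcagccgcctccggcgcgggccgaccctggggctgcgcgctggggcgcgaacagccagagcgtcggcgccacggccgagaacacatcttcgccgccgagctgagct
In CCN2 the core motif stood 3 times, with first bases 169, 104 and 95 bases upstream of the start. ANKRD1 had it at 220 and 128 bases upstream, NUAK2 at 197 and 18 bases, and AMOTL2 once, at 69 bases. Each of these matches fell inside the accessible region at or nearest to that gene's start. The longer ACATTCC was found in AMOTL2 and CCN2 and in 3.46% of all windows. TGANTCA, whose complement reads the same, was found in ANKRD1 (195 bases upstream) and in F3 (223 and 210 bases upstream), and in 7.71% of all windows; the SRF CArG box was in 0 of the 7 member windows and 1.29% of all windows. No TEAD match overlapped an AP-1 match, and ACATTCC always contains the core. GC content ran between 52.7% in ANKRD1 and 77.3% in F3, against a median of 58.7% over all windows.

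The deposited tables give comparisons and a mean over the 6 libraries, so values per library and library depth are unknown, and the authors' standard errors (SE) are the only measure of precision. A region was tested where its mean signal (normalised reads, averaged over the 6 libraries) passed the authors' limit. That held for 149 of the 341 regions at 2 h against mock, 92 at 18 h against mock and 176 at 18 h against 2 h; 165 were tested in no comparison. Calls are those with an adjusted p under 0.05 from the authors' DESeq2 fit. The called members nearest the threshold had adjusted p = 0.042 at 2 h against mock and 0.041 at 18 h against 2 h. Of marker genes, the tables held a region over the start of 2 of 8 melanocyte genes (MITF and S100B), 3 of 4 of undifferentiated melanoma (NGFR, SOX9 and FOSL1), 1 of 3 of fibroblasts, 1 of 3 of endothelium and 0 of 3 each of keratinocytes and immune cells. The melanocyte genes PMEL, MLANA, TYR, DCT and TYRP1 had regions but none over the start, and an open start is not a measure of RNA.

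The comparison of 2 h with mock asked what opened or closed soon after the protein was added. Of the 149 tested regions, 10 were higher and 0 lower after 2 h in the authors' deposited table (DESeq2). Over all tested regions, 0.856% were called higher and 0.421% lower; because the genes were chosen with these calls known, nothing is read from that gap. The 10 regions belonged to 6 genes, 3 each to AMOTL2 and CRIM1 and 1 each to ANKRD1, F3, CCN1 and NUAK2, and rose 1.23-fold to 3.04-fold with a median of 1.73-fold. At an unadjusted p under 0.05, 37 of the 149 were higher and 7 lower, against 4.33% higher and 5.68% lower of all tested regions. The median log2 fold change of the 149 was 0.08, and that of all tested regions was -0.06. Both comparisons with mock use the same mock libraries, and both that involve 2 h use the same 2 h libraries.

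**Figure D1:**
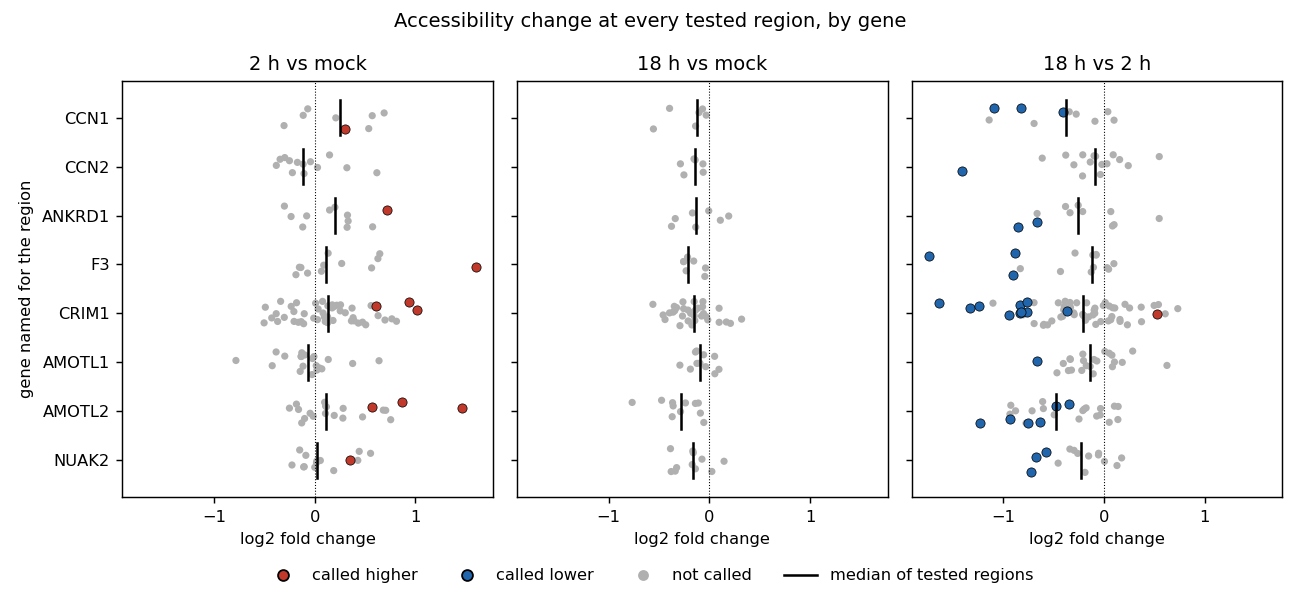
Log2 fold change (horizontal axis) of each tested region, by the gene it is named for (rows), in the 3 comparisons (panels). Red and blue points are regions called higher and lower, grey points were not called, and the bar is the gene's median. At 2 h against mock 10 points are red and 0 blue, at 18 h against mock 0 points are coloured, and at 18 h against 2 h 29 are blue and 1 is red.

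Of the classical readouts, ANKRD1 had a called region over its start. It lies on chromosome 10 (hg38, 90921069 to 90921570), contains both GGAATG matches printed above, and rose at 2 h by a log2 fold change of 0.72 ± 0.15 (SE; adjusted p = 0.000725, DESeq2) in the authors' deposited table. It fell by 0.86 ± 0.15 (adjusted p = 4.60e-06, DESeq2) at 18 h against 2 h, and at 18 h against mock it stood at -0.14 ± 0.16 (adjusted p = 0.946, DESeq2), both in the authors' deposited table. Approximate group levels can be computed from the mean signal and the deposited fold changes; for this region they were 218 normalised reads in mock cells, 359 at 2 h and 198 at 18 h. A second ANKRD1 region, 9.08 kb upstream (90930353 to 90930854), had 0.32 ± 0.11 (adjusted p = 0.099, DESeq2) at 2 h and fell by 0.66 ± 0.11 (adjusted p = 3.42e-07, DESeq2) at 18 h against 2 h in the authors' deposited table. The ANKRD1 region with the most signal, 47.4 kb upstream, was not called in any comparison and had -0.24 ± 0.11 at 2 h in the authors' deposited table. Thus 2 of the 11 ANKRD1 regions were called, and their approximate levels were highest at 2 h and lowest at 18 h. All 11 were tested at 18 h against 2 h, and 18.2% were called lower, against 2.98% of all tested regions.

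The called CCN1 regions lay downstream of the gene. The region over the start (chromosome 1, 85580536 to 85581037) had 0.21 ± 0.11 at 2 h and -0.07 ± 0.11 at 18 h, both against mock and neither called in the authors' deposited table. At 18 h against 2 h it had -0.28 ± 0.11 (adjusted p = 0.154, DESeq2), also not called in the authors' deposited table. A strong region 26.4 kb downstream (85607122 to 85607623; mean signal 973) rose at 2 h by 0.30 ± 0.09 (adjusted p = 0.042, DESeq2) and fell at 18 h against 2 h by 0.40 ± 0.09 (adjusted p = 0.000386, DESeq2) in the authors' deposited table. Its call at 2 h was lost when p was adjusted over all regions, with no limit on mean signal (adjusted p = 0.104). Its approximate levels were 924 normalised reads in mock, 1137 at 2 h and 859 at 18 h. Just past the end of the gene, 3.48 kb from the start, a region fell by 1.09 ± 0.21 (adjusted p = 6.18e-05, DESeq2) at 18 h against 2 h in the authors' deposited table, with approximate levels of 147, 212 and 99.7 in mock, 2 h and 18 h cells. Another, at 31.1 kb, fell by 0.83 ± 0.23 (adjusted p = 0.013, DESeq2) in the authors' deposited table. CCN1 had 3 of 10 tested regions called lower at 18 h against 2 h (30%, against 2.98% of all tested regions).

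CCN2 had 1 call among its 31 regions, and it was not at the start with the 3 TEAD core matches. The call was at 18 h against 2 h, where 16 CCN2 regions were tested (6.25% lower, against 2.98% of all tested regions). Over the start (chromosome 6, 131951114 to 131951615; mean signal 426) the log2 fold change was 0.32 ± 0.12 (adjusted p = 0.234, DESeq2) at 2 h against mock and -0.38 ± 0.12 (adjusted p = 0.054, DESeq2) at 18 h against 2 h in the authors' deposited table. At 2 h, 0 of its 13 tested regions were called by DESeq2, where 0.856% of all tested regions were called higher and 0.421% lower. An unadjusted p under 0.05 was found for 3 of the 13 (2 higher and 1 lower) in the authors' deposited table, and for 10.0% of all tested regions. The CCN2 region that fell at 18 h against 2 h, by 1.41 ± 0.37 (adjusted p = 0.00838, DESeq2), lay 3.97 kb downstream and was weak in the authors' deposited table, with a mean signal of 46.2, under the limit for testing against mock. Its approximate levels were 50.02 normalised reads in mock, 64.4 at 2 h and 24.2 at 18 h.

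The called regions of the surface protein genes F3 and CRIM1 lay away from the starts. The highest rise at 2 h among the tested members was at F3, 104 kb upstream (chromosome 1, 94646100 to 94646601), with 1.60 ± 0.31 (adjusted p = 0.000142, DESeq2) in the authors' deposited table. This region also had the largest fall at 18 h against 2 h among the called members, 1.74 ± 0.31 (adjusted p = 6.01e-06, DESeq2) in the authors' deposited table. It was weak, with a mean signal of 60.4. Its approximate levels were 36.6 normalised reads in mock, 111 at 2 h and 33.3 at 18 h. The limit for testing at 2 h against mock was a mean signal of 56.2. The limit at 18 h against 2 h was 41.7. Only the 2 h level was above either limit, so testing in both comparisons depended on the high 2 h signal of this region. On both sides of it, the F3 regions at 79.6 and 112 kb fell at 18 h against 2 h by 0.90 ± 0.22 and 0.88 ± 0.25 (adjusted p = 0.00243 and 0.020, DESeq2) in the authors' deposited table. Over the F3 start itself (94541621 to 94542122) the values against mock were -0.14 ± 0.15 at 2 h and -0.22 ± 0.15 at 18 h, neither called in the authors' deposited table.

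CRIM1 had the most regions and, at 18 h against 2 h, the most calls, but not the highest share. There 10 of its 63 tested regions were lower (15.9%, against 16.5% of the tested members and 2.98% of all tested regions). At 2 h, 3 of its 50 tested regions were higher (6%, against 6.71% of the tested members and 0.856% of all tested regions). Its leading region (chromosome 2, 36486540 to 36487041) lies 131 kb downstream of the start inside the CRIM1 span, and rose at 2 h by 0.94 ± 0.18 (adjusted p = 0.000216, DESeq2) in the authors' deposited table. The same region fell by 1.34 ± 0.19 (adjusted p = 2.20e-09, DESeq2) at 18 h against 2 h, and at 18 h against mock it had -0.40 ± 0.20 (adjusted p = 0.614, DESeq2) in the authors' deposited table. Approximate levels there were 160 normalised reads in mock, 307 at 2 h and 121 at 18 h. It belongs to a stretch of 12.6 kb (36477161 to 36489757), picked after its values were seen, that holds 10 regions. Of the 5 regions tested there at 18 h against 2 h, 4 were called lower and the fifth had -1.10 ± 0.35 (adjusted p = 0.0504, DESeq2) in the authors' deposited table, the closest miss of the threshold in that comparison.

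Other called CRIM1 regions lay nearer the start or upstream of it. Downstream, those at 11.9, 16.03, 21.0 and 25.1 kb, inside the gene, fell at 18 h against 2 h by 0.83 ± 0.26, 0.83 ± 0.26, 0.82 ± 0.22 and 0.37 ± 0.11 in the authors' deposited table. With no limit on mean signal, those at 11.9, 16.03 and 25.1 kb lost the call (adjusted p = 0.073, 0.082 and 0.057). At 16.7 kb upstream (36338685 to 36339186) the region rose at 2 h by 0.61 ± 0.16 (adjusted p = 0.022, DESeq2) and fell at 18 h against 2 h by 0.77 ± 0.16 (adjusted p = 0.000398, DESeq2) in the authors' deposited table; with no limit on mean signal the call at 2 h was lost (adjusted p = 0.0536). At 893 kb, the farthest called region of the 8 genes, it rose by 1.01 ± 0.24 (adjusted p = 0.00401, DESeq2) and fell by 1.24 ± 0.24 (adjusted p = 4.40e-05, DESeq2) in the authors' deposited table. The region 852 kb upstream, named after its values were seen, was the 1 member called higher at 18 h against 2 h, by 0.53 ± 0.15 (adjusted p = 0.016, DESeq2) in the authors' deposited table. It had -0.21 at 2 h and 0.32 at 18 h against mock, neither called in the authors' deposited table. The CRIM1 start (36355498 to 36355999) had 0.11 ± 0.11 at 2 h against mock and -0.17 ± 0.11 at 18 h against 2 h in the authors' deposited table.

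AMOTL2, a gene whose product restrains YAP, gave the smallest adjusted p of the members. A strong region 48.2 kb downstream of its start (chromosome 3, 134326784 to 134327285; mean signal 614) rose at 2 h by 0.57 ± 0.11 (adjusted p = 0.000145, DESeq2) in the authors' deposited table. It fell by 0.94 ± 0.11 (adjusted p = 2.10e-13, DESeq2) at 18 h against 2 h, and at 18 h against mock it had -0.37 ± 0.11 (adjusted p = 0.183, DESeq2) in the authors' deposited table. Its approximate levels were 566 normalised reads in mock, 837 at 2 h and 438 at 18 h. A neighbour at 43.6 kb (134331365 to 134331866) rose by 0.86 ± 0.18 (adjusted p = 0.000951, DESeq2) at 2 h and fell by 1.23 ± 0.19 (adjusted p = 5.40e-08, DESeq2) at 18 h against 2 h in the authors' deposited table. The remaining AMOTL2 rise, at 22.6 kb, was 1.46 ± 0.32 (adjusted p = 0.00133, DESeq2) at 2 h in the authors' deposited table. It was the 1 of the 10 risen regions not called lower afterwards, with -0.94 ± 0.30 (adjusted p = 0.0518, DESeq2) at 18 h against 2 h in the authors' deposited table. Its approximate levels were 35.7 normalised reads in mock, 98.1 at 2 h and 51.3 at 18 h. It is thus the 1 of the 10 with a higher approximate level at 18 h than in mock. Its mean signal of 61.7 passed the limit of 56.2 for testing at 2 h against mock. Only its 2 h level was above that limit, so testing depended on its high 2 h signal.

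Further AMOTL2 regions fell at 18 h against 2 h without a call at 2 h. They lay 17.2 kb downstream, inside the gene, and at 57.6 kb downstream and 51.9 kb upstream, with falls of 0.34 ± 0.09, 0.75 ± 0.20 and 0.48 ± 0.09 (adjusted p = 0.00864, 0.011 and 6.96e-05, DESeq2) in the authors' deposited table. Another at 54.3 kb, also called lower at 18 h against 2 h (a call lost with no limit on mean signal, adjusted p = 0.075), came closest to a call at 18 h against mock, with -0.77 ± 0.19 (adjusted p = 0.057, DESeq2) in the authors' deposited table; it is named because it sits at that threshold. The region nearest the AMOTL2 start (134374312 to 134374813; mean signal 911) lies 0.667 kb downstream of the start used in the files, but spans the RefSeq start whose window is printed above and holds its TEAD match. It had -0.02 ± 0.09 at 2 h and -0.09 ± 0.09 at 18 h against mock in the authors' deposited table.

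AMOTL1, the paralogue, had 1 called region among its 39. Of the 39, 23 were tested at 18 h against 2 h (4.35% lower, against 2.98% of all tested regions). The called region lies 30.7 kb upstream of the start used in the files but inside the RefSeq span of AMOTL1 (chromosome 11, 94737154 to 94737655). It fell at 18 h against 2 h by 0.67 ± 0.11 (adjusted p = 1.12e-06, DESeq2) in the authors' deposited table. At 2 h against mock it had 0.38 ± 0.11 (adjusted p = 0.0515, DESeq2) in the authors' deposited table, the closest miss of the threshold in that comparison. Approximate levels were 530 normalised reads in mock, 687 at 2 h and 432 at 18 h. At 2 h, 0 of 20 tested AMOTL1 regions were called by DESeq2, where 0.856% of all tested regions were called higher and 0.421% lower. An unadjusted p under 0.05 was found for 3 of the 20 (2 higher and 1 lower) in the authors' deposited table, and for 10.0% of all tested regions.

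The called NUAK2 regions lay past the 3′ end of the gene. The region 20.04 kb from the start (chromosome 1, 205301252 to 205301753; mean signal 876) rose at 2 h by 0.35 ± 0.09 (adjusted p = 0.00707, DESeq2) and fell at 18 h against 2 h by 0.68 ± 0.09 (adjusted p = 2.24e-11, DESeq2) in the authors' deposited table. Its approximate levels were 854 normalised reads in mock, 1092 at 2 h and 681 at 18 h. Neighbours at 22.9 and 27.0 kb fell by 0.72 ± 0.19 and 0.58 ± 0.14 (adjusted p = 0.00747 and 0.00358, DESeq2) in the authors' deposited table. These 3 called regions lie within 7.46 kb. The NUAK2 region with the most signal, 36.6 kb downstream (mean signal 1337), was not called, with -0.11 ± 0.07 at 2 h against mock and -0.05 ± 0.07 at 18 h against 2 h in the authors' deposited table.

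**Figure D2:**
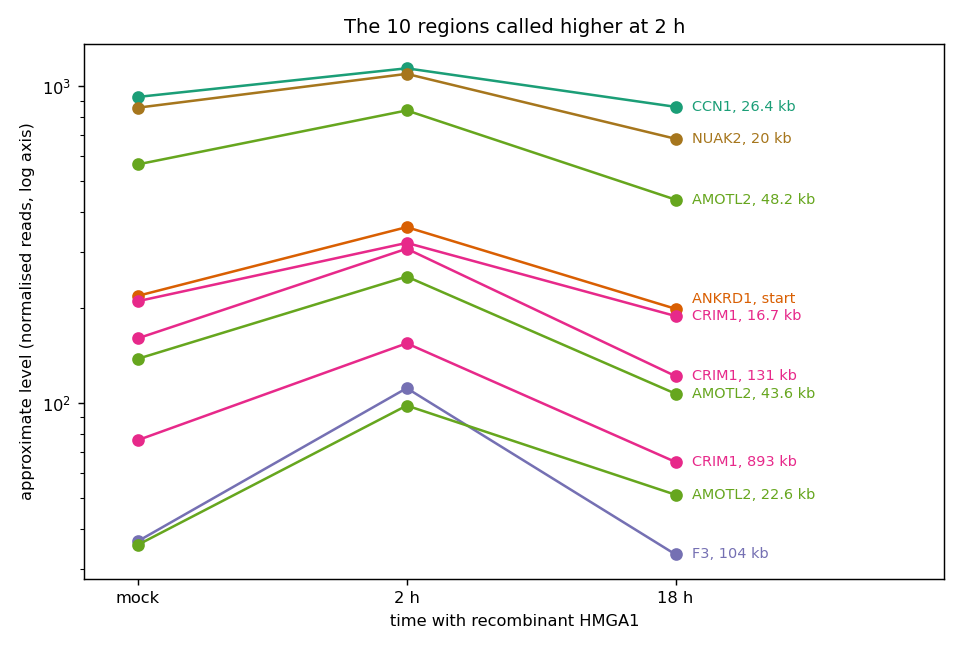
Approximate level in normalised reads (vertical log axis) of the 10 regions called higher at 2 h, in mock, 2 h and 18 h cells (horizontal axis), 1 line per region with its gene and distance from the start. Each line peaks at 2 h. The AMOTL2 region at 22.6 kb is the 1 that stays above its mock level at 18 h, at 51.3 against 35.7. The 10 regions were selected as higher at 2 h than in mock, and their fall by 18 h uses the same 2 h libraries. The peak therefore follows in part from that selection.

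Setting 18 h against 2 h asked how the times differed. Of 176 tested regions, 29 were lower and 1 higher at 18 h than at 2 h in the authors' deposited table, against 2.98% lower and 0.498% higher of all tested regions. Nothing is read from that gap either, since these calls were known when the genes were chosen. The 29 regions came from all 8 genes, 10 from CRIM1, 6 from AMOTL2, 3 each from CCN1, F3 and NUAK2, 2 from ANKRD1 and 1 each from CCN2 and AMOTL1. Their falls ran between 1.27-fold and 3.35-fold with a median of 1.77-fold, and 7 were at least 2-fold. The median log2 fold change of the 176 was -0.21, and that of all tested regions was 0.01.

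Called regions were spread around the genes. Of the 29, 20 lay downstream of the start, 8 upstream and 1 over it; 11 were inside the named gene's own span and 22 within 100 kb of its start. All 341 members divided into 204 downstream, 130 upstream and 7 over a start, with 172 in the named gene's own span and 228 within 100 kb. At 18 h against 2 h, 15.7% of the 70 members tested in the own span were called lower. Of the 129 tested within 100 kb 17.1% were, and of the 47 beyond it 14.9%, against 16.5% of all 176 tested members. Of the 91 downstream members tested at 18 h against 2 h, 21.98% were called lower, and of the 78 upstream members 10.3% were, against 2.98% of all tested regions. The difference between the sides was not tested.

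**Figure D3:**
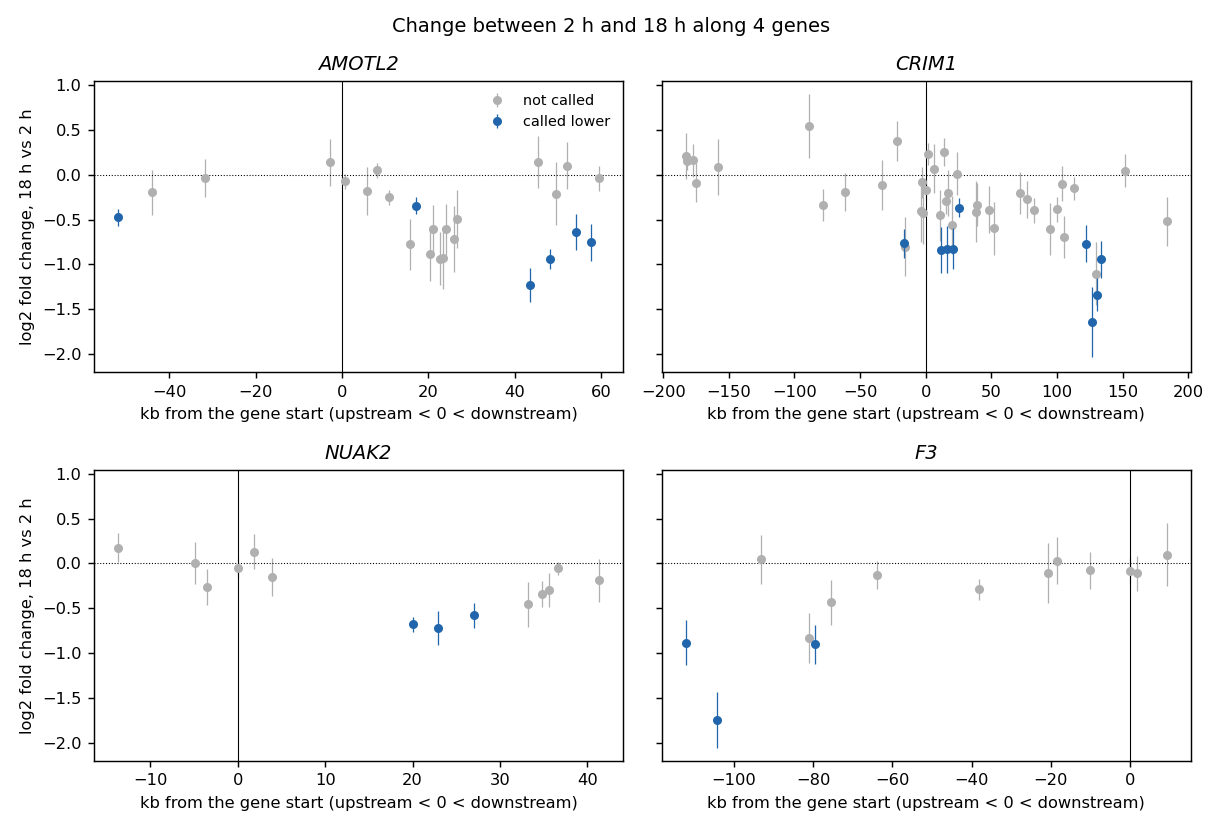
Log2 fold change of 18 h against 2 h (vertical axis, bars are the authors' SE) against distance from the gene start in kb (horizontal axis, upstream below 0) for the tested regions within 200 kb of 4 genes. Blue points were called lower. In these 4 of the 8 genes they stand away from the starts, at 20.04 to 27.0 kb for NUAK2, 79.6 to 112 kb upstream for F3 and 122.3 to 133 kb for the CRIM1 stretch, while the 4 points closest to the starts lie between -0.17 and -0.06. ANKRD1, not shown, had its start region called lower (-0.86 ± 0.15).

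The comparison of 18 h with mock asked what remained after the longer exposure. DESeq2 called 0 of 92 tested regions in the authors' deposited table, where 0.00542% of all tested regions were called higher and 0.116% lower. At an unadjusted p under 0.05, 1 member was higher and 19 lower, against 0.569% and 7.32% of all tested regions. The members' median log2 fold change was -0.15 and that of all tested regions -0.07. Among the 8 genes the median ran between -0.29 for AMOTL2 and -0.09 for AMOTL1. Of the 10 regions that rose at 2 h, 7 were tested at 18 h against mock, and the log2 fold changes of the 10 then ran between -0.40 and 0.52. The 29 regions called lower at 18 h against 2 h all had a value below 0 against mock at 18 h, with a median of -0.29. At 2 h, 28 of them had a value above 0, with a median of 0.47. Most regions were below 0 at 18 h against mock, with 80 of the 92 tested members below 0 and 30.5% of all tested regions above 0. At 2 h against mock, 87 of the 149 tested members and 37.8% of all tested regions were above 0. These medians include untested regions. Of the 29, 27 were tested at 2 h against mock. At 18 h against mock some were under the limit on mean signal, among them CCN2 at 3.97 kb, F3 at 104 kb and CRIM1 at 127 and 893 kb. None of those tested at 18 h against mock was called. Since the 18 h against 2 h call uses the same libraries as both comparisons with mock, the signs of the 29 are not independent of it.

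Of the 8 regions closest to a start, the ANKRD1 region was the 1 called higher at 2 h against mock (12.5%, against 6.71% of the 149 tested members and 0.856% of all tested regions). It was also the 1 called lower at 18 h against 2 h (12.5%, against 16.5% of the 176 tested members and 2.98% of all tested regions), and with 1 region nothing is read from these shares. None of the 8 was called at 18 h against mock (DESeq2; 0 also at an unadjusted p under 0.05). Ordered by the 2 h log2 fold change, ANKRD1 came first (0.72), followed by CCN2 (0.32), CCN1 (0.21), CRIM1 (0.11), AMOTL1 (-0.01), AMOTL2 (-0.02), NUAK2 (-0.10) and F3 (-0.14) in the authors' deposited table. ANKRD1 stood 0.40 above CCN2, with a combined SE of 0.19 for the 2 values. From CCN2 downward, each step to the next gene was smaller than the combined SE, and at most 0.12. Steps between neighbours do not measure the whole span, which ran between 0.32 ± 0.12 for CCN2 and -0.14 ± 0.15 for F3. The order by approximate level was another, with AMOTL2 highest (933 in mock, 922 at 2 h and 877 at 18 h) and ANKRD1 lowest in mock (218). The regions are equally long, but these levels carry no error and were not corrected here for GC content. Their order is given as a description.

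**Figure D4:**
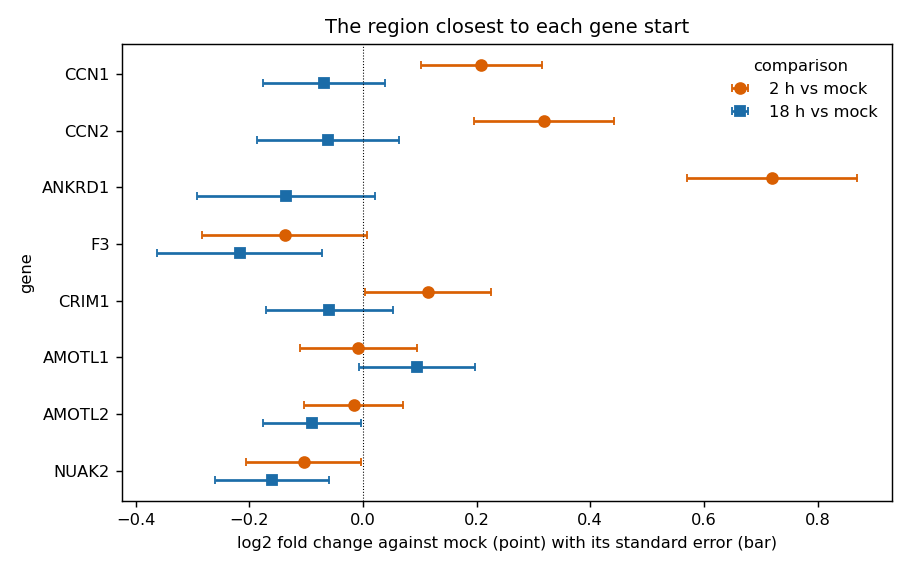
Log2 fold change against mock (horizontal axis) of the region closest to each gene start (rows), at 2 h (orange circles) and 18 h (blue squares); bars are the authors' SE. ANKRD1 has the highest value at 2 h with 0.72, while its 18 h value is -0.14.

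Medians over each gene's tested regions spanned less than the single regions did. At 2 h against mock they ran between -0.12 for CCN2 and 0.25 for CCN1. ANKRD1 had 0.20, CRIM1 0.13, AMOTL2 0.12, F3 0.11, NUAK2 0.02 and AMOTL1 -0.06. Single regions within a gene ranged more widely, between -0.78 and 0.64 for AMOTL1 and between -0.50 and 1.01 for CRIM1. At 18 h against 2 h the gene medians ran between -0.48 for AMOTL2 and -0.09 for CCN2, and each of the 8 was below 0.

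Other genes of the pathway were read in the same tables. The remaining 15 genes of a 22-gene YAP and TAZ target signature, from which 7 of the 8 members also come, had 12 of 242 tested regions higher (4.96%, against 0.856% of all tested regions) and 0 lower at 2 h, with a median log2 fold change of 0.04. At an unadjusted p under 0.05 (DESeq2) there were 44 of the 242, where all tested regions had 10.0%. At 18 h against 2 h, 38 of their 298 tested regions were lower (12.8%, against 2.98% of all) and 1 higher, in 13 and 1 genes. DESeq2 called 0 of 150 at 18 h against mock, with 28 at an unadjusted p under 0.05, where all tested regions had 7.89%. This list was read with earlier results known, so nothing is read from these gaps. TGFB2, a TGF-beta ligand gene, had a region 34.1 kb from its start that rose by 0.74 ± 0.13 at 2 h and fell by 1.19 ± 0.13 (adjusted p = 1.51e-15, DESeq2) at 18 h against 2 h in the authors' deposited table. RBMS3 is an RNA-binding protein gene, and IGFBP3 encodes an IGF-binding protein. Single regions 413 and 224 kb from their starts rose by 0.69 ± 0.16 and 1.28 ± 0.21 at 2 h in the authors' deposited table. These 2 regions fell by 1.11 ± 0.17 and 1.24 ± 0.20 at 18 h against 2 h in the authors' deposited table. For the receptor kinase gene AXL, a region 2.83 kb from its start had 0.38 ± 0.13 (adjusted p = 0.116, DESeq2) at 2 h and fell by 0.84 ± 0.13 at 18 h against 2 h in the authors' deposited table.

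Of the pathway's own machinery, 16 core genes had 4 of 177 tested regions higher (2.26%, against 0.856% of all tested regions) and 1 lower (0.565%, against 0.421%) at 2 h against mock. None of the 110 tested at 18 h against mock was called (19 at an unadjusted p under 0.05, DESeq2, where all tested regions had 7.89%). Of 216 tested at 18 h against 2 h, 10 were lower (4.63%, against 2.98% of all) and 0 higher. Those lower included single regions named for TEAD3 (-0.85 ± 0.12), the kinase genes STK3 (-0.79 ± 0.12) and LATS2 (-0.91 ± 0.15), and WWTR1, which encodes TAZ (-0.69 ± 0.14), all at 18 h against 2 h in the authors' deposited table. They lay 11.2 kb (TEAD3), 107 kb (STK3), 27.2 kb (LATS2) and 161 kb (WWTR1) from the gene starts. LATS2 is in both lists.

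Among the 8 genes, ANKRD1 had the highest median log2 fold change at 2 h over regions tested in both comparisons with mock (7 regions; 0.32 at 2 h and -0.14 at 18 h). Of 3692 gene names with at least 5 such regions, the nearest to this pair of medians were ZNF675, UGCG, MEGF6 and THBS1, at Euclidean distances of 0.0397, 0.0405, 0.0431 and 0.0446 on the log2 scale. This likeness rests on 2 contrasts of 3 groups that share the mock libraries, and the count of regions per gene was 5, 6, 8 and 33.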

How the data were processed

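ATAC-seq was done on 6 A375 libraries in 3 groups of 2, taken from the titles in the labels. Per the submitters' processing notes, bcl2fastq 2.17 demultiplexed the reads, the build was hg38 and DESeq2 was the authors' test; aligner, peak caller, read counter and any Tn5 shift of read ends are not given in the sources used here. Each deposited table gives per region a mean signal (counts of reads over a size factor), a log2 fold change with its standard error, the Wald statistic (a score) and the authors' p-value and adjusted p. The mean signal was the same in the 3 deposited tables, and their log2 fold changes add up to within 1.02e-14, so they come from 1 fit of all 6 libraries.

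Repeat rows of a region were left out. Regions under the authors' limit on mean signal (56.2 at 2 h against mock, 101 at 18 h against mock, 41.7 at 18 h against 2 h) all have an adjusted p of 1 and were taken as not tested; adjusting the other p-values by Benjamini-Hochberg returned the deposited ones. The count test planned as a fallback was not needed. Alternatives re-centred the fold changes on the median region or within 20 bins of mean signal, with p recomputed from the deposited errors and adjusted over all tested regions; these steps were tested on simulated data. The approximate level in mock is 3 times the mean signal divided by 1 plus both linear fold changes against mock; it holds to the extent that the fitted group means equal the averages. The sign of the distance gave the side of the start, and was checked against annotated starts (340 of 341 regions had the sign of the annotated start; AMOTL2 has a second start).

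Members and lists were chosen with earlier results of these data known. Named regions were, for each gene, the region closest to the start, up to 6 called regions and the one with the most signal; of each other list, the 4 genes with the smallest adjusted p. A start may differ by 1 base, since nothing says whether coordinates count from 0 or 1. Python 3.11.15, pandas 2.3.3, NumPy 2.4.6 and SciPy 1.17.1 were used.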

Additional observations from a re-analysis of the deposited data

Results flagged for a closer look

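The effects at 18 h and 2 h differed, by the deposited test of 18 h against 2 h (DESeq2, adjusted p under 0.05), at these named regions; all values are log2 fold changes from the authors' deposited table. For CCN1 they were -1.09 at 3.48 kb from the start, -0.40 at 26.4 kb and -0.83 at 31.1 kb, and for CCN2 -1.41 at 3.97 kb. For ANKRD1 they were -0.86 over the start and -0.66 at 9.08 kb. F3 had -0.90, -1.74 and -0.88 at 79.6, 104 and 112 kb. CRIM1 had -0.77 at 16.7 kb, -0.77, -1.64, -1.34 and -0.94 at 122.3, 127, 131 and 133 kb, and -1.24 at 893 kb. AMOTL1 had -0.67 at 30.7 kb. AMOTL2 had -0.34, -1.23, -0.94, -0.48 and -0.75 at 17.2, 43.6, 48.2, 51.9 and 57.6 kb. NUAK2 had -0.68, -0.72 and -0.58 at 20.04, 22.9 and 27.0 kb. What sets these regions apart was not tested.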

How the results depend on the processing

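Centring moved calls upward at 2 h. Regions called higher at 2 h numbered 10 as deposited, 15 when centred on the median region, 17 when centred within bins of mean signal, and 7 to 11 under the other settings run; 0 were called lower under any. Regions called lower at 18 h against 2 h numbered 29, between 21 and 33 under the other settings with all 8 genes, and 19 without CRIM1 (added after seeing the data). The 1 higher region became 0 at a threshold of 0.01, within 100 kb and without CRIM1, to which it belongs. At 18 h against mock the counts stayed 0, and the median of -0.15 became -0.083 (median) and -0.084 (bins).

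With p adjusted over all regions and no limit on mean signal, 2 of the 10 higher calls at 2 h were lost (CCN1 at 26.4 kb and CRIM1 at 16.7 kb) and 3 gained. Those gained were weak regions under the limit, CCN1 at 5.03 and 6.12 kb and CCN2 at 133 kb. Their rises at 2 h were 1.68, 2.26 and 1.84. Their adjusted p of 0.00851, 0.0273 and 0.0230 came from Benjamini-Hochberg over all regions, applied to the deposited DESeq2 p. As deposited, these regions were not tested at 2 h against mock. At 18 h against 2 h, 4 of 30 calls were lost, CRIM1 at 11.9, 16.03 and 25.1 kb and AMOTL2 at 54.3 kb, and 2 gained. No member lost a call under either centring, and 5 values of named regions changed sign, all of regions nearest a start and not called. At 18 h against mock, CCN1 became 0.00061 (median) and 0.0049 (bins), CCN2 0.0072 and 0.019, and CRIM1 0.0099 and 0.024. At 2 h, AMOTL1 became 0.051 and 0.093 and AMOTL2 0.044 and 0.078. Both centrings gained calls, 6 each among the named regions, including the CCN2 start at 2 h with bins (0.42, adjusted p = 0.045) and at 18 h against 2 h with either (-0.39 and -0.40). With ACATTCC in place of GGAATG, 2 genes in place of 4 had a match.

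No paired analysis was possible because the tables hold no values per library; other scalings, count models, pseudocounts and leaving out libraries were not run for the same reason. Under the limit on mean signal in each comparison, and so without a call, were 165 of 341 regions; library depth is unknown.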
